A study of Homo sapiens with 6 samples.

Results

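The CDK inhibitors, GADD45 proteins and RB proteins are a set of 10 genes chosen by name (CDKN1A, CDKN1B, CDKN2B, CDKN2C, CDKN2D, GADD45A, GADD45B, GADD45G, RB1 and RBL2), of which 9 had a probe set annotated to that symbol alone. Those 9 genes, out of 19775 genes in all, were covered by 16 of 54675 probe sets. CDKN2C is not analysed here. Their RNA was compared between mesodermal progenitors and undifferentiated cells, both of the established human embryonic stem cell (hESC) line H9. In Stemline II medium, VEGF, FGF2, BMP4 and activin A had induced the progenitors, which were isolated on day 3.5 by flow cytometry as cells with CD56 (the neural adhesion molecule NCAM1) and without CD326 (the epithelial adhesion molecule EPCAM). Each group had 3 one-colour arrays. All of them came from 1 line, and unsorted day 3.5 cultures are not analysed here, so the sort and the differentiation cannot be told apart.

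Cyclin-dependent kinases (CDKs) drive the cell cycle when a cyclin binds them. The CIP/KIP proteins p21 (CDKN1A) and p27 (CDKN1B) bind cyclin-CDK complexes, whereas the INK4 proteins, among them CDKN2B (p15) and CDKN2D (p19), bind only CDK4 and CDK6. Active CDKs phosphorylate the pocket proteins RB1 and RBL2 (p130) and so free E2F transcription factors to switch on genes of DNA replication. GADD45 proteins are small, stress-inducible proteins that bind CDK1, PCNA and the kinase MAP3K4. Human embryonic stem cells are known for a short G1 phase and for pocket proteins that are kept largely phosphorylated.

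The promoters of 4 of the measured genes are shown first, all of which rose, as did the genes not shown. Each is the 250 bases before 1 start site per gene on the sense strand, 5′ to 3′, from RefSeq (GRCh38.p14). No window was available for GADD45A. For GADD45B, GADD45G and CDKN1B the window ends just before the first base of the annotated gene, whereas the CDKN1A window lies inside the annotated gene, which begins at position 36676463, and precedes an internal start. Capitals mark CCAAT boxes (CCAAT), E-boxes (CACGTG) and TATA boxes (TATAAA or TATATA), each searched on both strands, and no marked match overlapped another.
GADD45B, chr19:2475877-2476126, plus strand: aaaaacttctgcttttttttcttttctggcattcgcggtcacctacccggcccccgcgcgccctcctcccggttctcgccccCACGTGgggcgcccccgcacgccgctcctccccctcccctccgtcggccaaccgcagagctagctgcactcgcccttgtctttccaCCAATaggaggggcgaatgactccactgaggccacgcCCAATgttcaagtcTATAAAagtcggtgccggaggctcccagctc
GADD45G, chr9:89604762-89605011, plus strand: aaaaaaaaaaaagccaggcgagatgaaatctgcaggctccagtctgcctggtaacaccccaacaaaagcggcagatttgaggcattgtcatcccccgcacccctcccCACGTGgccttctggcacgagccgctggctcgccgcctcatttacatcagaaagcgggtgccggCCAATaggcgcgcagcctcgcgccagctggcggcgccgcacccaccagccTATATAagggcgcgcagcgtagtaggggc
CDKN1A, chr6:36678464-36678713, plus strand: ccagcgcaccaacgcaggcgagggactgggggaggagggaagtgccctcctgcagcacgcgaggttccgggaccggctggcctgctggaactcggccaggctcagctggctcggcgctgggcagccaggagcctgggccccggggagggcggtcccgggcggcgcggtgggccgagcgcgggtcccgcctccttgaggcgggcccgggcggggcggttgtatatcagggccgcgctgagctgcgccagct
CDKN1B, chr12:12717118-12717367, plus strand: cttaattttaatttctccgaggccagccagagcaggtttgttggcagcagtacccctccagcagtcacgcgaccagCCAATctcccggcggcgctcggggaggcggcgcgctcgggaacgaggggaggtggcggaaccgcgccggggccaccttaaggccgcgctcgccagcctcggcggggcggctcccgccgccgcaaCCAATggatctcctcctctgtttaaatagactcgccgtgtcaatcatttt
The windows of GADD45B and GADD45G both held an E-box, a CCAAT box and a TATA box, in that order. Over all 35116 promoter windows of the same length, 6.34% held the E-box, 32% the CCAAT box and 12.8% a TATA box, and 0.154% held all of them; this combination was chosen after the sequences were seen. CDKN1B had 2 CCAAT boxes and no E-box or TATA box. CDKN1A had none of these letters and 4 GC boxes (GGGCGG, both strands, present in 42.6% of windows and not marked by capitals), some of which overlap each other. The window of CDKN1B also held 1 GC box, and those of GADD45B and GADD45G held none. The windows of RB1, CDKN2B and CDKN2D and both windows of RBL2, which are not shown, held no E-box or TATA box. The RB1 window, chr13:48476200-48476449, lies inside the annotated gene, which spans positions 48303751 to 48481890. It precedes an internal start, so the bases before the first base of RB1 were not searched. A match is a description of the letters only.

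Intensities are the deposited linear values. Changes are differences of group means on the log2(intensity + 16) scale after quantile normalization, progenitor minus hESC, and understate the change of dim genes. A gene was called when the Benjamini-Hochberg adjusted p of limma, over all genes, was under 0.05. Median intensities ran from 31.0 to 31.2 on progenitor arrays and from 33.1 to 36.1 on hESC arrays. Progenitor arrays 2 and 3 differed least of all pairs, with 7 genes over 2-fold apart, against 208 and 180 genes between array 1 and each of them. The sorted antigens followed the labels, with NCAM1 at 1094 to 1429 in the progenitors against 84.4 to 106 in hESC, and EPCAM at 554 to 679.7 in the progenitors against 3245 to 3434 in hESC. All 9 markers of nascent and lateral mesoderm rose, and their intensities summed to 19994 to 20661 on progenitor arrays, against 212 to 310.4 on hESC arrays. All 7 measured hESC markers fell, and theirs summed to 4004 to 4258 on progenitor arrays, against 20066 to 23722 on hESC arrays.

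All 9 measured genes were higher in the progenitors and passed the test, while 26.7% of all genes were called higher, 21.2% lower and 47.9% in either direction. The median change of the 9 was 1.33, beside 0.04 over all genes. The set was chosen with earlier results of these data known, so these shares describe it and do not test it. Of related genes outside the set, CDKN1C and CDKN3 rose, RBL1 fell and CDKN2A did not pass. At least 2-fold increases on the log2(intensity + 16) scale were called for 5 of the 9 genes (CDKN1A, CDKN1B, GADD45A, GADD45B and GADD45G), beside 9.39% of all genes. As ratios of mean deposited intensities, without the pseudocount, CDKN2B (2.83), CDKN2D (2.00) and RB1 (2.00) were also at 2 or above. The 3 arrays of the progenitors lay above those of hESC for each of the 9, as for 32% of all genes. Because the RNA came from bulk samples, a change in the share of cells with a transcript and a change in its amount per cell cannot be told apart.

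**Figure D1:**
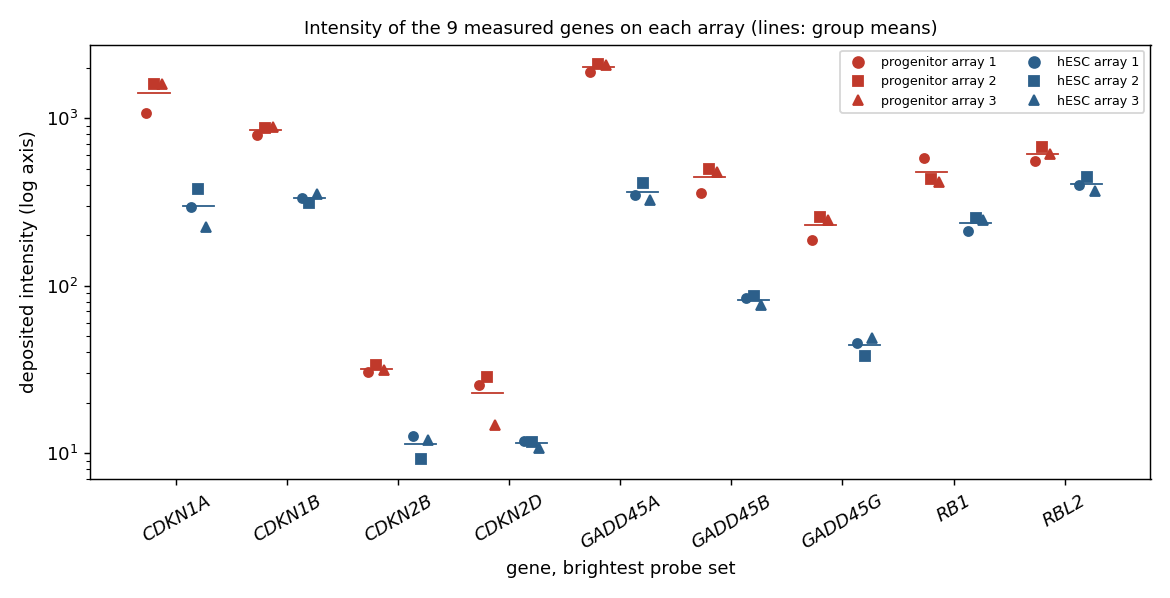
Deposited intensity (log axis) of the brightest probe set of each of the 9 genes on the 3 progenitor arrays (red, left) and the 3 hESC arrays (blue, right), with group means as lines. The groups do not overlap for any of the 9 genes, and CDKN2B and CDKN2D lie at 33.65 or less on each array.

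GADD45A, which is induced by DNA damage, had intensities of 1879.5, 2099 and 2088 in the progenitors, against 347, 411 and 326 in hESC. It had the largest increase of the 9 genes on this scale, 2.47 (SE 0.11, n = 3 per group, adjusted p = 2.22e-06), and 2.15% of all genes increased more. GADD45B, which is induced by TGF-beta and NF-kappaB signalling in several cell types, had 359, 499 and 478 in the progenitors, against 83.9, 86.1 and 76.7 in hESC. Every progenitor array was more than 4 times the highest hESC array, and the change was 2.24 (SE 0.14, adjusted p = 1.44e-05). GADD45G had 188, 259 and 247 in the progenitors, against 45.1, 38.1 and 48.6 in hESC, a change of 2.07 (SE 0.15, adjusted p = 2.98e-05). The 95% confidence intervals of the 3 changes overlapped, at 2.22 to 2.72 for GADD45A, 1.91 to 2.57 for GADD45B and 1.71 to 2.42 for GADD45G, and the differences between them were not tested.

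GADD45B was the gene with the most probe sets, 4, and all of them passed the test. The x_at and s_at probe sets 209304_x_at and 209305_s_at gave changes of 1.95 (SE 0.16) and 1.94 (SE 0.19), close to that of the brightest, 207574_s_at. The dimmest, 213560_at, had 19.0, 20.9 and 19.1 in the progenitors, against 2.92, 3.84 and 7.17 in hESC. Its change was 0.85 on the scale with a pseudocount of 16 and 2.05 with a pseudocount of 1.

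CDKN1A, which encodes p21, had intensities of 1068, 1606 and 1595 in the progenitors, against 297, 378 and 223 in hESC. The means were 1423 ± 307 and 299 ± 77.6 (SD, n = 3 each), and the change was 2.21 (SE 0.22, adjusted p = 0.000152). CDKN1A varied more among arrays of a group than GADD45A did, with SDs of 0.35 in the progenitors and 0.34 in hESC on the log2 scale, against 0.09 and 0.15 for GADD45A. CDKN1B, which encodes p27, had 796, 880.2 and 881 in the progenitors, against 332, 309.6 and 354 in hESC. Its arrays lay close together in both groups (SD 0.10 and 0.09), and its change was 1.33 (SE 0.09, adjusted p = 2.61e-05).

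The INK4 genes were dim in both groups. CDKN2B, which TGF-beta induces in epithelial cells, had 30.4, 33.65 and 31.5 in the progenitors, against 12.6, 9.16 and 11.9 in hESC, on its brighter probe set, 236313_at. Every progenitor array was at least 2 times the hESC arrays there, and the change was 0.89 (SE 0.09, adjusted p = 0.000147), with 0.39 at a pseudocount of 64 and 1.57 at a pseudocount of 1. Its other probe set, 207530_s_at, did not pass, with 12.95, 2.28 and 5.17 in the progenitors, against 4.24, 3.66 and 3.49 in hESC. The difference on that probe set was 0.21 with a 95% confidence interval of -0.20 to 0.61, and the groups overlapped.

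CDKN2D had 25.4, 28.4 and 14.6 in the progenitors, against 11.8, 11.7 and 10.7 in hESC, on its brighter probe set, 210240_s_at. Its change of 0.56 (SE 0.15, adjusted p = 0.0152) was the smallest of the 9. The call was lost without progenitor array 1 (adjusted p = 0.0504) or array 2 (0.0511), when arrays were centred on the median of their genes (0.0819) and with its probe sets averaged (0.129). The other probe set, 213586_at, had 17.0, 8.70 and 8.51 in the progenitors, against 12.7, 10.5 and 17.3 in hESC, and did not pass (difference -0.05, 95% confidence interval -0.42 to 0.32).

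The retinoblastoma gene RB1 had 579, 431 and 418 in the progenitors, against 213, 252 and 248 in hESC. The mean intensity was 2.00 times that of hESC, and the change was 0.92 (SE 0.14, adjusted p = 0.00114). Its dim probe set, 211540_s_at, was called at 0.37 (adjusted p = 0.0399, over all probe sets) and was not called at that threshold under 11 of 15 alternative settings. RBL2, which encodes the pocket protein p130, found mostly in resting cells bound to repressive E2F4, had 553, 669 and 614 in the progenitors, against 397, 443 and 367 in hESC. Its change was 0.59 (SE 0.11, adjusted p = 0.00386), and its other probe set, 212332_at, gave 0.60 (SE 0.14, adjusted p = 0.0117). That probe set was dim, with 24.3, 21.5 and 13.15 in the progenitors, against 10.15, 8.11 and 7.30 in hESC. On it the change was 0.23 at a pseudocount of 64 and 1.23 at a pseudocount of 1. Both probe sets of RBL2 were called at the 0.05 threshold under each alternative that tested them.

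**Figure D2:**
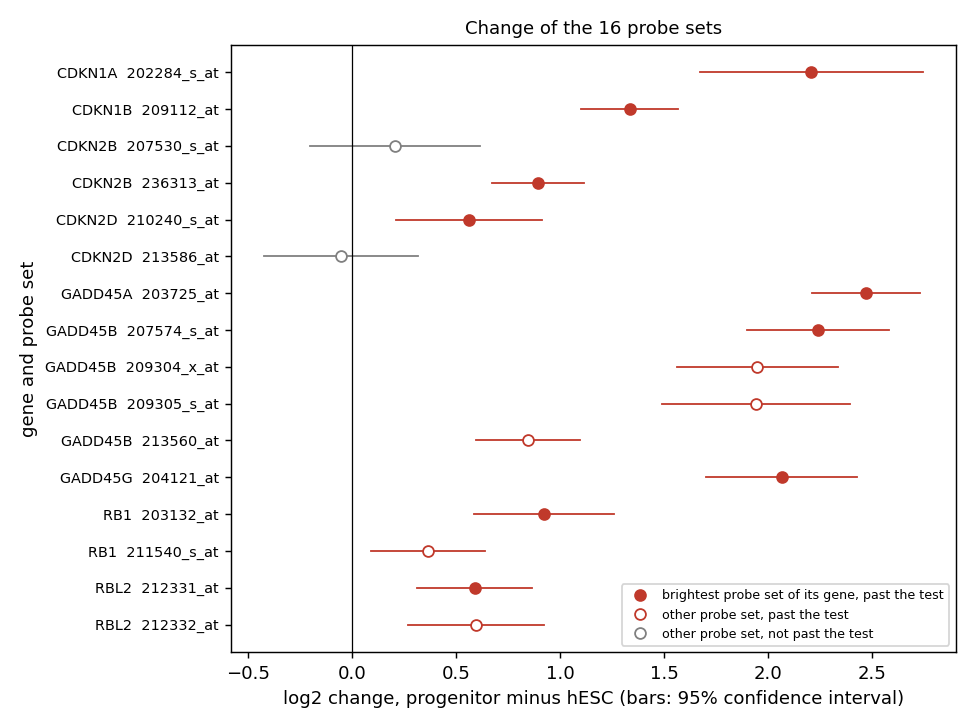
Log2 change, progenitor minus hESC, of the 16 probe sets, with 95% confidence intervals from limma over all probe sets. Filled circles are the brightest probe set of each gene, and 14 of the 16 passed the test; 207530_s_at of CDKN2B and 213586_at of CDKN2D (grey) did not.

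Over the probe sets, 14 of 16 were called higher and 0 lower, with 0 lower at an unadjusted p under 0.05 as well in limma, while 20.3% of all 54613 probe sets without the array controls were called higher and 20% lower. The x_at and s_at probe sets can match several transcripts. When they were left out, CDKN1A had no probe set left, GADD45B was represented by its dimmest one (0.85), and CDKN2D turned to -0.05 (adjusted p = 0.83).

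Several of the 9 genes lay apart on progenitor array 1. Against the mean of progenitor arrays 2 and 3, CDKN1A was lower there by 0.61 on the log2 scale (difference -0.61), GADD45B had a difference of -0.48 and GADD45G of -0.43, and RB1 was higher by 0.41. Endothelial and early blood markers were higher on that array for 12 of 12 genes, by a median of 1.50. Their summed intensities were 7094 on progenitor array 1, 2200.0 and 2387 on arrays 2 and 3, and 751 to 801 in hESC, where CDH5 (VE-cadherin) was near the lowest value, at 1.40 to 2.38. Endoderm markers summed to 2539.7 on that array, against 1213 and 1177 on the other progenitor arrays and 368 to 409.5 in hESC. CER1, a secreted inhibitor of NODAL and BMP signals, made up most of that gap. It had 1952 on array 1 and 743 and 742 on arrays 2 and 3. Of the 6 measured endoderm markers, 4 were higher on array 1, by a median of 0.29 over the 6. Of 7 measured hESC markers 5 were higher there (median 0.20), of 9 mesoderm markers 4 (median -0.02) and of 7 neuroectoderm markers 3 (median -0.03). Without progenitor array 1 the changes were 2.42 for CDKN1A, 2.39 for GADD45B, 2.19 for GADD45G and 0.79 for RB1 (limma adjusted p = 0.000239, 8.55e-06, 4.80e-05 and 0.00172), and 8 of the 9 genes were called, with CDKN2D lost. With progenitor arrays 2 and 3 averaged into 1 array, 9 of 9 were called.

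**Figure D3:**
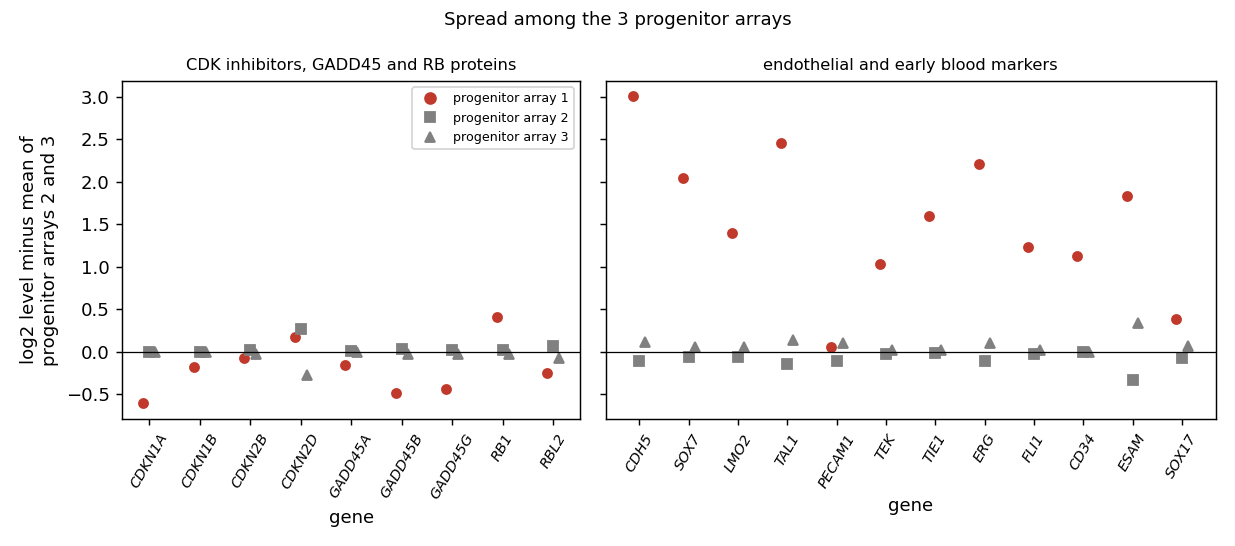
Log2 level on each progenitor array minus the mean of progenitor arrays 2 and 3, for the 9 genes (left) and 12 endothelial and early blood markers (right). Array 1 (red) is lower for CDKN1A by 0.61, higher for RB1 by 0.41, and higher for each of the 12 markers.

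Genes that act with these proteins were read from 7 lists, which held 107 measured genes. Of these 41 rose (38.3%), 24 fell and 42 did not pass, with a median change of 0.15. Beside them, 26.7% of all genes were called higher and 21.2% lower. The other CDK inhibitors and pocket proteins divided, with 2 of 4 higher and 1 lower (median 0.55). CDKN1C, which encodes p57, the third CIP/KIP protein, averaged 914 in the progenitors, against 149 in hESC, and rose by 2.51 (SE 0.11, adjusted p = 2.80e-06). CDKN3, a phosphatase that acts on CDK2, rose by 0.96. RBL1, which encodes the pocket protein p107, fell by 0.56 (adjusted p = 0.0152), in the opposite direction to RB1 and RBL2. The call of RBL1 was lost without progenitor array 3 (adjusted p = 0.0523) or hESC array 1 (0.0577), with its probe sets averaged (0.0516) and when arrays were scaled on hybridization controls (-0.05, adjusted p = 0.786). CDKN2A, the INK4 gene next to CDKN2B in the genome, did not pass (0.14, adjusted p = 0.536).

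Of the 19 cyclins, CDKs and CDC25 phosphatases, 9 rose (47.4%, beside 26.7% of all genes) and 4 fell (median 0.28). CDK6, a D-cyclin partner that INK4 proteins bind, rose by 1.93 (mean intensity 1571 in the progenitors and 411 in hESC). The D-type cyclin CCND3 rose by 1.09 and CDK2 by 0.98. CDK4, which INK4 proteins also bind, chosen after its value was seen, did not pass, at 0.15 (adjusted p = 0.249). Its mean intensity was 2105.5 in the progenitors and 1986.1 in hESC. The germ-cell cyclin CCNA1 fell by 1.69, CDK7, the kinase that activates other CDKs, by 0.61, and cyclin E1 (CCNE1) by 0.47. With scaling on hybridization controls the calls of CDK7 and CCNE1 were lost (-0.11 and -0.02), and that of CDK7 was also lost without hESC array 1 or 2. Cyclins CCND2 and CCNB1 did not pass, at 0.16 and 0.07.

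E2F, DP and MuvB proteins moved both ways, with 7 of 19 higher (36.8%, beside 26.7% of all genes) and 7 lower (median 0.08). E2F1, an activator of replication genes that RB1 restrains, averaged 234 in the progenitors, against 618 in hESC, and fell by 1.34 (SE 0.11, adjusted p = 5.46e-05). TFDP2, a dimer partner of E2F, fell by 1.07 and MYBL1 by 0.90. LIN54 and LIN37, parts of the MuvB complex that joins RBL2 in the DREAM repressor, rose by 1.09 and 0.96, and the repressive E2F6 rose by 0.96. E2F4, to which p130 binds and which was chosen after its value was seen, fell by 0.80 (adjusted p = 0.00157). Its mean intensity was 362 in the progenitors and 643 in hESC. LIN37 turned to -0.01 when x_at and s_at probe sets were left out. TFDP1 and E2F5 did not pass, at -0.03 and 0.08.

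Of 14 genes that control the turnover of p21 and p27, 4 rose and 2 fell (median 0.07). The 28.6% that rose lay near the 26.7% of all genes called higher. CKS1B, the cofactor with which the ligase subunit SKP2 takes up p27, rose by 0.62, RBX1 by 0.48 and DDB1 by 0.32. CUL4A and PCNA fell by 0.39 and 0.30, and both turned, to 0.05 and 0.17, with scaling on hybridization controls. RBX1 was called in 13 of 19 alternatives, PCNA in 8 and DDB1 in 17. SKP1 and COPS5 did not pass, at 0.15 and 0.07. SKP1 was called in 6 of 19 alternatives, among them averaged probe sets (0.30, adjusted p = 0.0107) and x_at and s_at probe sets left out (0.28, adjusted p = 0.0497). Nor did SKP2, chosen after its value was seen, pass, at 0.08 (95% confidence interval -0.12 to 0.27).

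Of 24 measured genes of the DNA damage response, 7 rose and 6 fell, with a median of 0.06. The share that rose, 29.2%, lay near the 26.7% of all genes called higher. Among the increases, not all of which are given, the polo-like kinase gene PLK2 rose by 1.39 and ZMAT3, which encodes an RNA-binding zinc finger protein, by 1.00. The death receptor FAS fell by 1.21, the ribonucleotide reductase subunit RRM2B by 0.67 and MDM4, a relative of the ligase MDM2, by 0.47. FAS turned to 0.08 without x_at and s_at probe sets, RRM2B was not called with scaling on hybridization controls (-0.21), and MDM4 was called in 14 of 19 alternatives. CCNG1 and TRIAP1 did not pass, at -0.13 and -0.14.

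Among 12 measured partners of GADD45 proteins and stress kinases, 5 rose (41.7%, beside 26.7% of all genes) and 2 fell (median 0.13). CDK1 rose by 0.90, PPP1R15A, also known as GADD34, by 0.81 and MAP2K4, a kinase above JNK, by 0.73. MAP3K4, the kinase that GADD45 proteins bind, chosen after its value was seen, rose by 0.57. MAP2K6, a kinase above p38, fell by 0.93, and was not called without x_at and s_at probe sets, and PCNA, also on the list above, fell. GADD45GIP1 and TDG did not pass, at 0.04 and -0.05.

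Of 17 measured transcription factors known to act on CDK inhibitor genes, 8 rose (47.1%, beside 26.7% of all genes) and 3 fell (median 0.31). TBX3, a T-box repressor of CDKN1A and of the CDKN2A locus in other cells, rose by 6.13, with a mean intensity of 2256 in the progenitors and 18.1 in hESC. KLF6, an activator of CDKN1A, rose by 1.77, and SMAD3, which mediates TGF-beta and activin signals, by 1.63. FOXO1, of a family of factors that activate CDKN1B and GADD45A, averaged 227 in the progenitors, against 874 in hESC, and fell by 1.91. KLF4 fell by 1.13 and FOXO4 by 0.77, the call of FOXO4 being lost with scaling on hybridization controls (-0.29). MYC, a repressor of CDKN1A and CDKN2B, did not pass, at 0.12, nor did FOXO3, at 0.06.

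**Figure D4:**
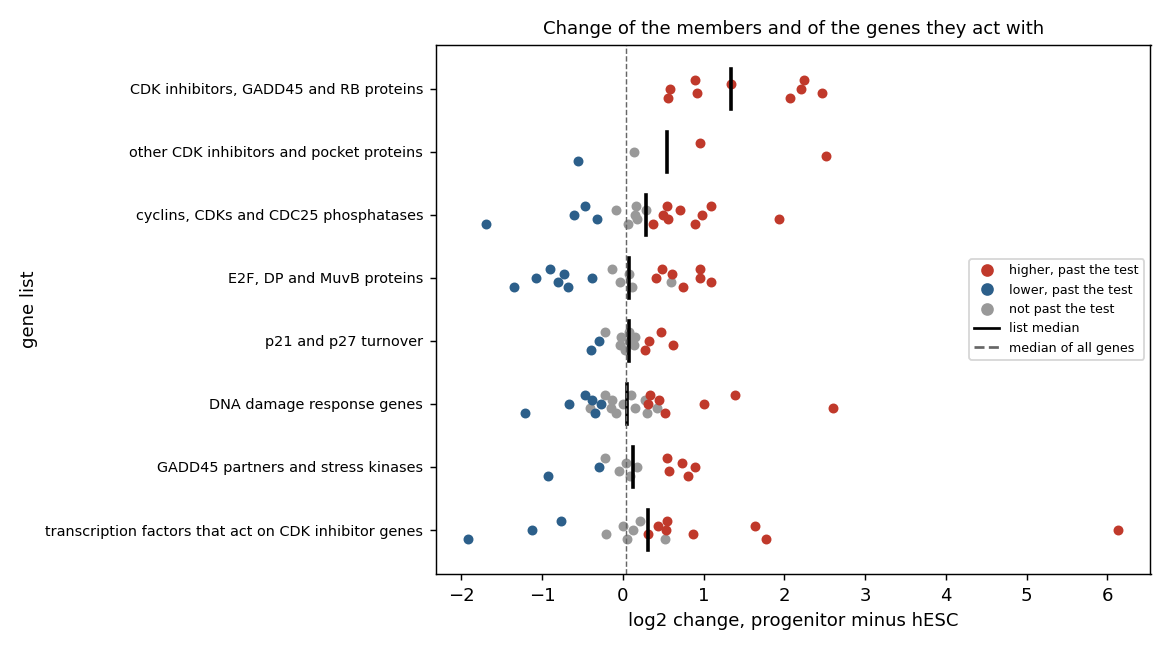
Log2 change, progenitor minus hESC, of each gene of the set (top) and of the 7 lists, coloured by the result of the limma test, with the median of each list and of all genes (0.04, dashed). The 9 genes lie between 0.56 and 2.47, and each of the 7 lists holds genes on both sides of 0.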

How the data were processed

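The labels describe 6 arrays with biotinylated cRNA, 3 of mesodermal progenitors and 3 of hESC. The authors deposited 1 intensity per probe set on a linear scale, as the values show; how probes were summarised or arrays scaled is not stated in the labels or the file header. Of the values, 2.15% equalled 1 and 19 lay below 1. Probe sets were named from GEO's platform annotation, with symbols updated through the gene identifier for 41037 of those with 1 gene. Of all probe sets 41097 had 1 symbol, 1801 several and 11777 were not listed; 62 array controls were left out of the tests. Each gene was read from its probe set with the highest mean, and single probe sets were tested as well.

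Intensities were converted to log2(intensity + 16), quantile-normalized and tested with lmFit and eBayes of limma 3.58.1 (R 4.3.3), two-sided, in 2 groups without covariates. Plots used matplotlib 3.10.9 (Python 3.11.15). The table holds no detection calls, and 3 arrays per group limit the precision. The labels do not name separate cultures, so the p-values reflect only the variation among these arrays, possibly technical. No pairing by replicate number was seen (correlations of same-numbered deviations -0.04 to 0.03), which does not show that the arrays were unpaired. The genes of the set, the 7 lists, the tests and the alternatives were chosen with earlier results of these data known. Named from each list were the 3 largest called increases and decreases and the 2 brightest genes not called; 1 gene that this rule takes from the damage response list is not reported here, so the increases given for that list are not its 3 largest. Tested on simulated arrays for this contrast (19775 genes), the fit recovered 26% of changes of 0.5, 92% of 1, 94% of 2 and 100% of 4, and called 4 of 19575 unchanged genes. The simulation drew the noise of each gene independently. It gave each size of change to 50 genes only, whereas 47.9% of all genes were called in the data. The Benjamini-Hochberg cut was therefore stricter in the simulation, and the recovered shares do not carry over to this contrast.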

Additional observations from a re-analysis of the deposited data

How the results depend on the processing

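Of the 9 genes, 7 to 9 were called higher under 20 alternatives, and none was called lower. CDKN2D alone lost its call (also at an adjusted p under 0.01) or turned where it was tested, to -0.0512 without x_at and s_at probe sets, whereas CDKN1A was not tested there and CDKN2B and CDKN2D were not tested with the dimmest 30% or 50% of genes left out. Leaving out 1 array in turn gave 8 to 9 genes and 12 to 13 probe sets where 14 had been called. With the dimmest 50% left out, 9 probe sets remained in the test and 9 were called. Scaling on the 14 hybridization control probe sets (bioB, bioC, bioD) moved the median over all genes to 0.52 and centring on gene medians to -0.15, against 0.04. Relative to that median the smallest difference among the 9 genes was that of CDKN2D, at 0.52 after quantile normalization and 0.48 without normalization; the other scalings shift all genes of an array by 1 constant, so that they leave this difference as it was by construction. Over all genes 5278 were called higher and 4185 lower, 55.8% higher; this became 12574 higher and 1767 lower (87.7%) with hybridization controls, and 6447 lower (37.2% higher) with centring. Of the listed genes 76 were then higher and 8 lower with hybridization controls. The signs of PCNA (0.1657), CUL4A (0.051), CCNG1 (0.3746), TDG (0.3856), TRIAP1 (0.2939) and TFDP1 (0.4091) turned there, and those of FAS (0.0828) and LIN37 (-0.0062) without x_at and s_at probe sets. With centring, CDKN2A, CCND2, CCNB1, E2F5, COPS5, GADD45GIP1, MYC and FOXO3 turned without a call, to between -0.17 and -0.06. The causes were not tested. With the replicate number as a block, 9 of the 9 genes and 13 probe sets were called, with 4956 genes higher and 3924 lower.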

Other observations

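RNAs transcribed next to members of the set, looked up after the results were seen, did not pass the test on any probe set. CDKN2A, which lies beside CDKN2B, had 3 probe sets, with limma adjusted p = 0.573, 0.573 and 0.807 over all probe sets. The brightest, 207039_at, had 14.0, 21.95 and 30.4 in the progenitors, against 19.8, 18.8 and 22.4 in hESC. CDKN2B-AS1, the antisense RNA of that locus, had 4.10, 5.45 and 3.45 in the progenitors, against 7.70, 4.39 and 3.18 in hESC, and its difference was -0.02 (95% confidence interval -0.27 to 0.23, adjusted p = 0.908). CDKN2A-AS1 had 15.4, 10.4 and 15.2 in the progenitors, against 10.9, 11.7 and 8.97 in hESC (difference 0.22, adjusted p = 0.139). RB1-DT, the divergent RNA of RB1, had 2 probe sets. On 1559544_s_at it had 12.2, 23.2 and 24.8 in the progenitors, against 21.7, 18.1 and 15.2 in hESC (difference 0.14, adjusted p = 0.548), and on 1559543_at it was at or below 2.98 on each array.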
